A study of Schmidtea mediterranea with 6 samples.

Results

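The transcripts of vasa-1 (SMESG000067941.1) and vasa-2 (SMESG000049071.1) were followed in sorted X1 cells of the planarian Schmidtea mediterranea. These are 2 of the 30917 gene models counted in every library, and the rule takes them by name, as the genes that the study's annotation pairs with the planarian VASA 1 and VASA 2 mRNAs. That annotation comes from tables of genes that the study selected as changed in these same libraries, and results for both genes were known when they were chosen, so that both passed the test below is not independent evidence of a change. X1 cells are the irradiation-sensitive, cycling fraction obtained by flow cytometry from dissociated animals, in which the planarian stem cells, the neoblasts, are enriched. The control animals received dsRNA against gfp, a sequence foreign to the planarian genome, and are written gfp(RNAi). The other animals received dsRNA against Smed-exoc3, the planarian gene for a component of the exocyst, and are written exoc3(RNAi). All animals were starved, unmutated worms of 5 to 5.5 mm that were injected on 3 consecutive days and again on 3 consecutive days 12 days later, with X1 cells collected several weeks after the first injection. Each group had 3 libraries of mRNA from X1 cells, which the study describes as biological replicates. RNAi lowers a transcript without removing the gene, and it acts in the whole animal and not in X1 cells alone. An age was not given in the sources used here.

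Vasa proteins are DEAD box RNA helicases, enzymes that use ATP to open short RNA duplexes and to remodel complexes of RNA and protein. In many animals they mark germ cells, where they act in cytoplasmic granules and in the production of piRNAs, the small RNAs that guide PIWI proteins to transposon transcripts. Planarian neoblasts are somatic stem cells that use much of the same machinery, including PIWI proteins, Tudor domain proteins and Vasa-like helicases, and store it in granules named chromatoid bodies.

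The study's oligonucleotides for vasa-2 and for the Smed-exoc3 dsRNA are given here. The text of the study reports no RT-qPCR result for vasa-2. The first pair are the study's RT-qPCR primers for Smed-vasa2, and the second pair amplified the template of the dsRNA that sets the exoc3(RNAi) group apart. All 4 are written in lower case in the direction 5′ to 3′, a reading of the reverse column that was taken from paired guide oligonucleotides in the same table. Where in the genome they lie was not analysed here.
Smed-vasa2 forward: aaccccgacacaagttcatcg
Smed-vasa2 reverse: acgccaccgtaagaatagctg
Smed-exoc3 dsRNA forward: tcacgagcagataagtgact
Smed-exoc3 dsRNA reverse: cccattctctgaaccattgca
The vasa-2 primers are 21 bases each, with a GC content of 52.4%.

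The libraries held 28897363 to 37525894 reads assigned to genes, and 18686 to 19115 gene models had at least 1 read. One library stood apart. The chi-square statistic per degree of freedom between replicates was 8.18 and 7.46 when exoc3(RNAi) replicate 3 was compared with replicates 1 and 2, against 1.37 between those 2 and 1.35 to 3.14 among the gfp(RNAi) libraries. Smed-exoc3 itself was at 70.2, 74.0 and 72.7 CPM in gfp(RNAi) and at 31.9, 31.2 and 42.5 CPM in exoc3(RNAi), where CPM are counts per 1000000 reads of the TMM-scaled library total. Its transcript thus stood at 44.1%, 43.1% and 58.7% of the control mean in the depleted libraries, with replicate 3 retaining the most. Results are therefore also given without that library. The neoblast genes smedwi-2 and smedwi-3 were abundant in all 6 libraries, with 81972 to 158251 reads each.

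The transcripts of vasa-1 and vasa-2 moved in opposite directions when Smed-exoc3 was depleted. vasa-1 was lower by 11.8% and vasa-2 higher by 18.9% in the fitted comparison, and for neither gene did the 3 libraries of one group overlap those of the other. Such a lack of overlap was common, since it held for 60.8% of the genes tested, with the exoc3(RNAi) libraries above the controls for 30.1% and below them for 30.7%. Both changes were small beside those of many other genes in the same cells.

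Transcript levels of vasa-1 were 1611, 1643 and 1617 CPM in gfp(RNAi) replicates 1, 2 and 3 and 1502, 1492 and 1304 CPM in exoc3(RNAi) replicates 1, 2 and 3. All 3 depleted libraries were below all 3 controls, and replicate 3 was the lowest by a wide margin. The group means were 1624 ± 17.3 CPM in gfp(RNAi) and 1433 ± 112 CPM in exoc3(RNAi) (SD, n = 3). The log2 fold change of exoc3(RNAi) over gfp(RNAi) was -0.18 ± 0.05 (SE), with a 95% interval of -0.28 to -0.08 and an adjusted p of 0.00434 in edgeR's quasi-likelihood test. At an adjusted p under 0.05 this test called 53% of the 14700 genes tested, so a call as such did not set vasa-1 apart. Without exoc3(RNAi) replicate 3 the log2 fold change was -0.12, with an edgeR adjusted p of 1.73e-05. The change was thus smaller although the p-value was lower, in a fit without the library that stood apart. Under upper quartile scaling of the libraries it was -0.10, with an edgeR adjusted p of 0.0486, at the edge of the threshold.

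For vasa-2 the control libraries read 672, 688 and 687 CPM and the depleted libraries 839, 829 and 765 CPM, in replicate order. All depleted libraries lay above all controls. Replicate 3, the library that had kept the most Smed-exoc3 transcript, was the nearest to the controls for vasa-2 but the furthest from them for vasa-1. Whether either level followed the remaining Smed-exoc3 transcript was not tested. The mean was 683 ± 9.13 CPM in gfp(RNAi) and 811 ± 40.3 CPM in exoc3(RNAi) (SD, n = 3). The log2 fold change was 0.25 ± 0.04 (SE), with a 95% interval of 0.17 to 0.33 and an edgeR adjusted p of 6.67e-05. Leaving out exoc3(RNAi) replicate 3 gave 0.29.

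**Figure D1:**
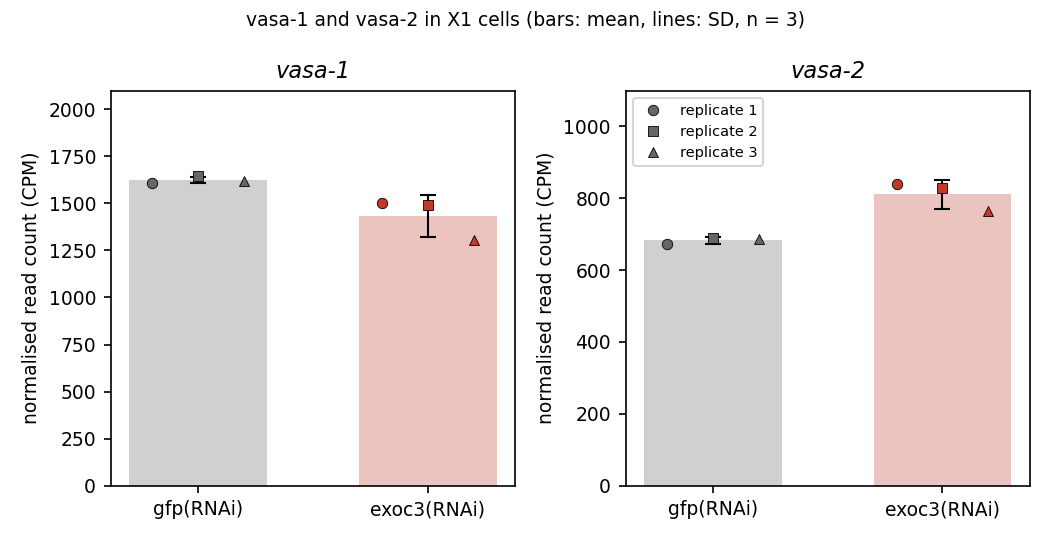
Normalised read count in CPM (vertical axes, from 0) of vasa-1 (left) and vasa-2 (right) in X1 cells of gfp(RNAi) and exoc3(RNAi) animals. Points are single libraries with 1 symbol per replicate number, bars are means and lines are SD (n = 3). For vasa-1 the exoc3(RNAi) libraries, at 1304 to 1502 CPM, sit below the controls at 1611 to 1643 CPM, and for vasa-2 they sit above, at 765 to 839 CPM against 672 to 688 CPM.

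Both values rested on many reads, 43824 to 57044 per library for vasa-1 and 21285 to 31888 for vasa-2. Counting error was therefore 0.419% to 0.478% of the vasa-1 value and 0.56% to 0.685% of the vasa-2 value. Among gfp(RNAi) libraries the coefficient of variation was 1.07% for vasa-1 and 1.34% for vasa-2. Among exoc3(RNAi) libraries it was 7.79% and 4.97%. Replicates of the depleted group thus spread more than counting alone allows, mainly through replicate 3, in which vasa-1 stood at 80.3% and vasa-2 at 112% of the control mean. In replicates 1 and 2 these values were 92.5% and 91.9% for vasa-1 and 123% and 122% for vasa-2.

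In relation to other genes the changes were modest. Of the 14700 genes tested, 62.3% had a larger absolute log2 fold change than vasa-1 and 50.3% a larger one than vasa-2. The median absolute log2 fold change was 0.25 over all genes tested and 0.38 over those called. When a fold change above 1.2 was required in the edgeR test, neither gene was called, with adjusted p-values of 1.00 for vasa-1 and 0.726 for vasa-2. In sorted bulk samples such as these, fewer cells of a type and less RNA per cell cannot be told apart.

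Whether the balance of the 2 helicase transcripts shifted was examined by their ratio within each library, which does not depend on how libraries are scaled. Because read counts were not divided by transcript length, the ratio serves to compare libraries and not the levels of the genes. There were 2.40, 2.39 and 2.35 vasa-1 reads per vasa-2 read in gfp(RNAi) libraries and 1.79, 1.799 and 1.70 in exoc3(RNAi) libraries. The 95% exact binomial intervals, which cover counting error only, were 2.32 to 2.44 over the controls and 1.68 to 1.83 over the depleted libraries. The groups did not overlap, and exoc3(RNAi) replicate 3 was again the lowest.

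The mean ratio was 2.38 ± 0.0233 in gfp(RNAi) and 1.76 ± 0.0522 in exoc3(RNAi) (SD, n = 3). On the log2 scale the ratio fell by 0.43. In linear terms it fell by 25.9%. An exact permutation test (two-sided) returned p = 0.1, below which a design of 3 against 3 cannot go. With the vasa-2 count of each library in place of the library total, edgeR gave a log2 change of -0.43 ± 0.04 (SE) for vasa-1 and an adjusted p of 2.4e-06, in a fit that called 53.9% of genes. Without exoc3(RNAi) replicate 3 the change in the log2 ratio was -0.41.

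**Figure D2:**
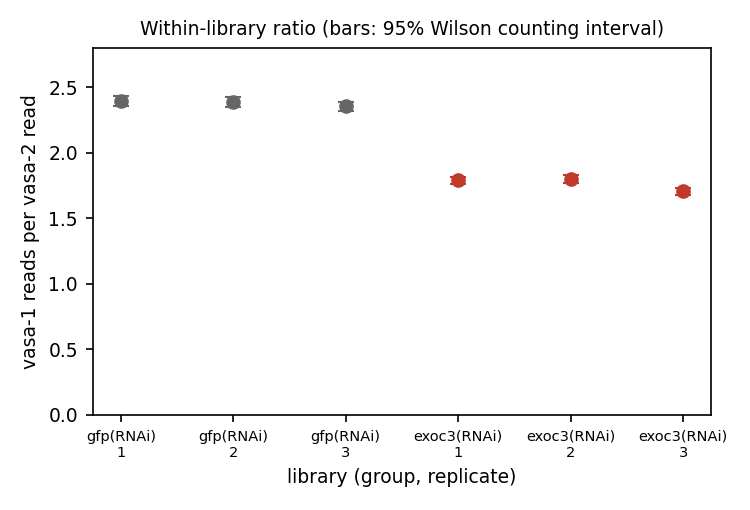
Reads of vasa-1 per read of vasa-2 (vertical axis, from 0) in each of the 6 libraries (horizontal axis). Bars are 95% exact binomial intervals for counting error, although the heading inside the figure names them Wilson. The 3 gfp(RNAi) libraries lie at 2.35 to 2.40 and the 3 exoc3(RNAi) libraries at 1.70 to 1.799.

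As a share of the reads of both genes together, vasa-1 made up 70.4 ± 0.205% in gfp(RNAi) and 63.8 ± 0.691% in exoc3(RNAi) (SD, n = 3). The summed level was 2283, 2332 and 2304 CPM in the controls and 2341, 2322 and 2069 CPM in the depleted libraries, so that replicates 1 and 2 lay among or above the controls and replicate 3 below them. The summed mean was 2306 ± 24.5 CPM against 2244 ± 152 CPM (SD, n = 3), a log2 change of -0.04 with an exact permutation p of 0.9. Without exoc3(RNAi) replicate 3 that change was 0.02 in the other direction.

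Both genes were then set against 3 transcripts of cycling neoblasts in the same libraries. smedwi-2 and smedwi-3 encode PIWI proteins, and cyclin B encodes a regulator of entry into mitosis. smedwi-2 was at 4926, 4825 and 4755 CPM in gfp(RNAi) and 3519, 3563 and 3305 CPM in exoc3(RNAi), and was thus clearly lower after depletion. For smedwi-3 the levels were 3245, 3252 and 3193 CPM against 2738, 2792 and 2549 CPM, a smaller fall. Cyclin B was at 122, 115 and 119 CPM in controls and 144, 139 and 128 CPM in depleted libraries, and was higher in all 3. The log2 fold changes were -0.48 ± 0.03, -0.26 ± 0.03 and 0.21 ± 0.04 (SE), with edgeR adjusted p-values of 8.69e-08, 2.47e-05 and 0.00139. Thus vasa-1 moved in the direction of the PIWI genes and vasa-2 in that of cyclin B. Of all genes tested 27.1% were called lower and 25.8% higher, so sharing a direction with these genes did not set either helicase apart.

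**Figure D3:**
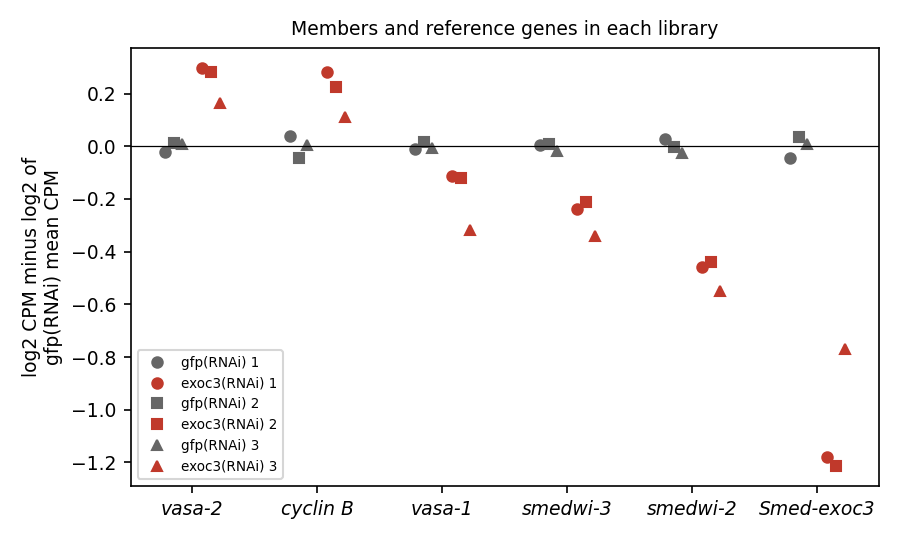
Log2 CPM of each library minus the log2 of the gfp(RNAi) mean (vertical axis) for vasa-2, cyclin B, vasa-1, smedwi-3, smedwi-2 and Smed-exoc3 (horizontal axis), in grey for gfp(RNAi) and red for exoc3(RNAi), with 1 symbol per replicate number. In exoc3(RNAi) libraries vasa-2 lies at 0.16 to 0.30 and vasa-1 at -0.32 to -0.11, and for all of these genes but Smed-exoc3 the lowest value is that of replicate 3.

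Relative to smedwi-2, which itself fell by more than vasa-1, both helicase transcripts gained. vasa-2 reads per smedwi-2 read were 0.136, 0.143 and 0.145 in gfp(RNAi) and 0.239, 0.233 and 0.232 in exoc3(RNAi), a fold of 1.66. vasa-1 reads per smedwi-2 read were 0.327, 0.341 and 0.340 in gfp(RNAi) and 0.427, 0.419 and 0.394 in exoc3(RNAi), a fold of 1.23. With the smedwi-2 count as scale, edgeR gave log2 changes of 0.73 ± 0.04 for vasa-2 (adjusted p = 1.32e-08) and 0.30 ± 0.04 for vasa-1 (adjusted p = 1.95e-05), where 76.5% of genes were called.

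Relative to smedwi-3, only the gain of vasa-2 passed the edgeR test. vasa-2 reads per smedwi-3 read were 0.207, 0.212 and 0.215 in controls and 0.307, 0.297 and 0.300 in depleted libraries, and the edgeR log2 change was 0.51 ± 0.03 (SE, adjusted p = 9.7e-07). vasa-1 reads per smedwi-3 read were 0.496, 0.505 and 0.506 in controls and 0.548, 0.535 and 0.511 in depleted libraries. These groups did not overlap but nearly met, and the edgeR log2 change of 0.08 ± 0.04 (SE) had an adjusted p of 0.0807. With smedwi-3 as scale 63.3% of genes were called.

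Against cyclin B the picture was the reverse. vasa-1 reads per cyclin B read were 13.2, 14.3 and 13.6 in controls and 10.4, 10.7 and 10.2 in depleted libraries, an edgeR log2 change of -0.39 ± 0.06 (SE, adjusted p = 6.27e-06). vasa-2 reads per cyclin B read were 5.50, 5.98 and 5.76 in controls and 5.81, 5.97 and 5.96 in depleted libraries, so the groups overlapped. The log2 change was 0.04 ± 0.05 (SE), with an edgeR adjusted p of 0.557 in a fit that called 49.7% of genes, so no difference was detected here. Over the 7 ratios compared, the exact permutation test gave p = 0.1 for each of those whose groups did not overlap (0.117 after Benjamini-Hochberg adjustment) and p = 0.4 for vasa-2 per cyclin B.

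Other RNA helicases of the DEAD and DEAH box families were described next. The list held 26 genes, all of which passed the filter on low counts, and all 26 were called lower in exoc3(RNAi), with log2 fold changes of -0.63 to -0.17 and a median of -0.41. The median over all genes tested was 0.02, and 27.1% of them were called lower. That count cannot be read as evidence of a common direction. The names came from annotation that covers mainly the genes the study found changed in these same libraries. Of its 1527 genes 99.7% were called, and 67.4% of those called were lower.

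Of this list 25 genes fell by more than vasa-1, 1 by less, and none reached the value of vasa-2. The smallest changes were those of DDX52, which acts in ribosome assembly in yeast, at -0.17 ± 0.04 (SE), EIF4AIII, the helicase of the exon junction complex, at -0.20 ± 0.03, and DHX8, a splicing helicase, at -0.21 ± 0.04. EIF4AIII was at 1059, 1041 and 1048 CPM in gfp(RNAi) and at 918, 913 and 916 CPM in exoc3(RNAi), with replicate 3 between the other 2. The fall was largest for CG7878, a DEAD box gene named after its Drosophila counterpart, at -0.63 ± 0.03, followed by SNRNP200, which unwinds the U4/U6 snRNAs in the spliceosome, at -0.58 ± 0.04 and DDX24, a nucleolar helicase, at -0.58 ± 0.04. CG7878 was at 2495, 2435 and 2435 CPM in gfp(RNAi) and at 1597, 1618 and 1532 CPM in exoc3(RNAi), so every depleted library was far below every control. The adjusted p-values of edgeR for these 6 genes were 4.13e-09 to 0.00536.

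DDX3X helicases, which are near relatives of Vasa and act in translation, were represented by 2 genes. SMESG000046974.1 was at 837, 856 and 851 CPM in controls and at 750.3, 744 and 693 CPM in depleted libraries, which gave a log2 fold change of -0.22 with an SE of 0.03 and an adjusted p of 0.000119 in edgeR. SMESG000013025.1 was at 121, 122 and 123 CPM against 98.7, 97.5 and 92.5 CPM, where the log2 fold change was -0.34 with an SE of 0.04 and an adjusted p of 3.67e-06 in edgeR. Both were thus lower in every depleted library, as vasa-1 was and vasa-2 was not.

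TDRD9 and TDRD12 join a helicase domain to a Tudor domain and act in the piRNA pathway of mouse germ cells. TDRD9 was at 435, 442 and 446 CPM in gfp(RNAi) and at 363, 360.4 and 310.4 CPM in exoc3(RNAi). TDRD12 was at 536, 538 and 536 CPM in gfp(RNAi) and at 419, 424 and 370.2 CPM in exoc3(RNAi). For both, replicate 3 was well below the other depleted libraries, as it was for vasa-1. Their log2 fold changes were -0.36 ± 0.05 and -0.41 ± 0.04 (SE), with edgeR adjusted p-values of 4.81e-05 and 5.29e-06.

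A second list held 17 genes for PIWI and Argonaute proteins, Tudor domain proteins and Sm proteins, the last being the ring-forming core of the splicing snRNPs. It includes TDRD9 and TDRD12, and its names come from the same selected annotation. Its counts, in whole or by family, therefore cannot be read as evidence of a common direction either. All 17 were tested and called, 8 higher and 9 lower, with a median of -0.26, compared with 25.8% of all genes called higher and 27.1% called lower. All 7 Sm and Sm-like genes were higher, led by SNRPE at 0.53 ± 0.06 (SE) and SNRPF at 0.47 ± 0.05, and SmB rose from 416, 428 and 425 CPM to 519.7, 501 and 495 CPM, a log2 fold change of 0.26 ± 0.03.

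All 4 PIWI and Argonaute genes were lower, where 27.1% of all genes tested and 67.4% of the called genes of the annotation were called lower. Of the 6 Tudor genes 5 were lower, and the lowest values of the list were those of SND1, a Tudor domain nuclease, at -0.55 ± 0.06 (SE) and of SMESG000031739.1, a gene with Tudor and KH domains, at -0.50 ± 0.04. SND1 was at 486, 483 and 476 CPM in controls and at 306, 311 and 373 CPM in depleted libraries, with replicate 3 nearest to the controls. The exception was TDRD5, a Tudor protein of germ granules in mouse, at 60.9, 61.8 and 62.8 CPM in gfp(RNAi) and 76.3, 74.6 and 77.1 CPM in exoc3(RNAi), a log2 fold change of 0.30 ± 0.04. All named genes of this list had edgeR adjusted p-values of 1.34e-05 or less except smedwi-3 and TDRD9, whose values are given above.

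**Figure D4:**
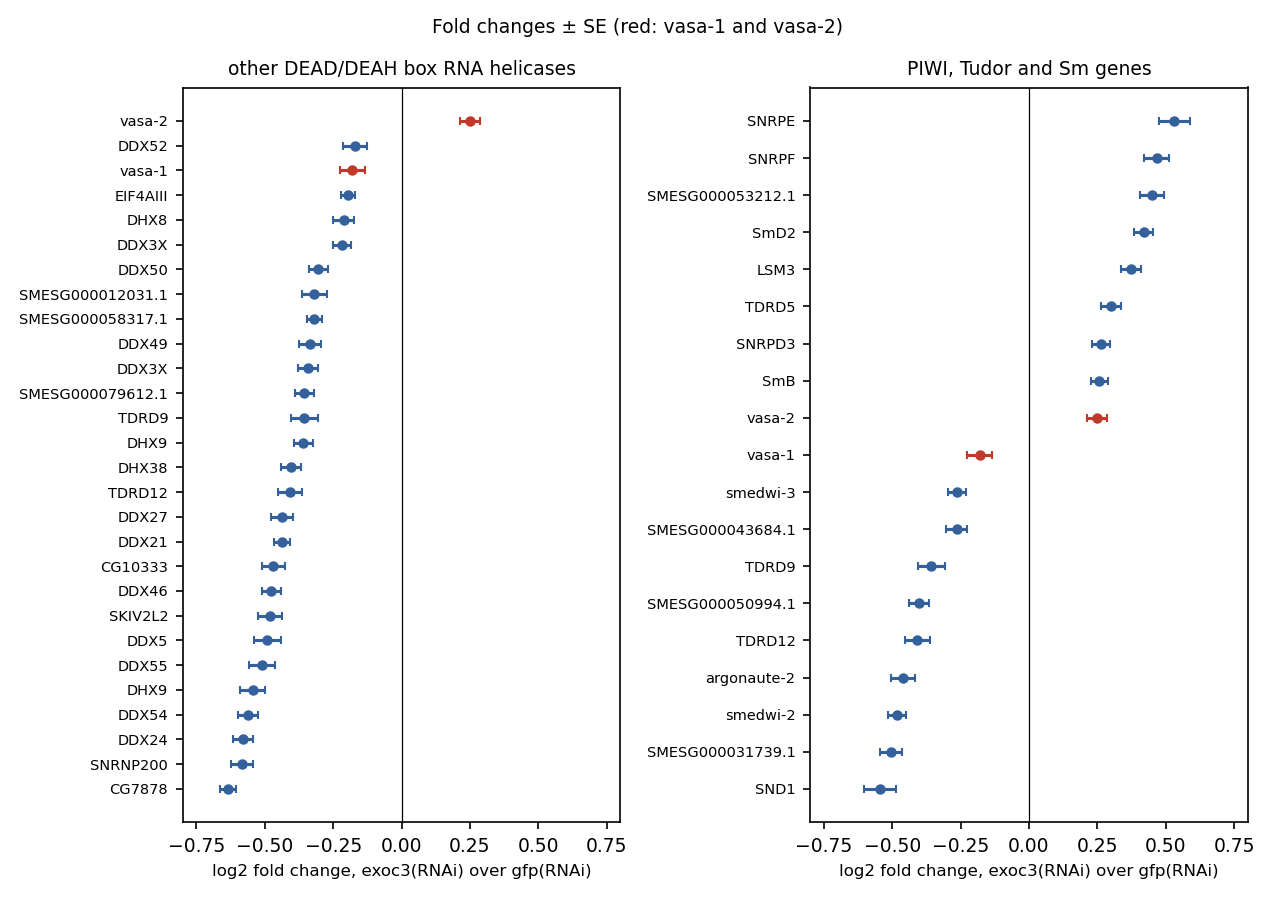
Log2 fold change of exoc3(RNAi) over gfp(RNAi) ± SE (horizontal axes) for 26 other DEAD and DEAH box RNA helicases (left) and 17 PIWI, Tudor and Sm genes (right), each ordered by value, with vasa-1 and vasa-2 in red. The other helicases lie between -0.63 and -0.17, and vasa-2, at 0.25, is the one helicase above 0. Both lists were drawn from annotation of genes selected as changed.

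Genes with the pattern most like each helicase were sought among the 7700 tested genes whose mean reached 10 CPM. Likeness was the root mean square difference of log2 CPM over the 6 libraries after each gene was centred on its own mean, and it is a description without a test. Nearest to vasa-1 were SMESG000019014.1 with a difference of 0.0087, SMESG000041927.1 with 0.0098 and SMESG000049360.1, the histone chaperone subunit SSRP1 of the FACT complex, with 0.0157. Next among genes with a description, with 0.0163, was SMESG000029273.1, the large subunit of ribonucleotide reductase, the enzyme that makes deoxyribonucleotides. SSRP1 was at 309, 316 and 314 CPM in gfp(RNAi) and at 291, 280.3 and 251 CPM in exoc3(RNAi). As for vasa-1, replicate 3 was the lowest of the depleted libraries, a likeness for which SSRP1 was selected.

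Nearest to vasa-2 were 3 genes for which the annotation at hand has no description. They are SMESG000019885.1 with a difference of 0.0067, SMESG000009931.1 with 0.0138 and SMESG000016195.1 with 0.0139. The first genes with a description were SMESG000042345.1, the p60 subunit of chromatin assembly factor 1, which loads histones onto new DNA, at rank 8 with 0.0187, and SMESG000029771.1, Nucleolar protein at 60B, a pseudouridine synthase of the nucleolus in Drosophila, at rank 11 with 0.0202. The chromatin assembly factor gene was at 140, 144 and 142 CPM in controls and at 171, 167 and 157 CPM in depleted libraries. Its depleted libraries thus fell in the order 1, 2 and 3, like those of vasa-2, a likeness for which it was selected.

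Markers of other cells moved with the groups as well. They too were named from the study's tables of genes selected as changed, so their counts are not independent evidence, and they stand beside 25.8% of all genes called higher and 27.1% called lower. All 19 epidermal progenitor markers were called lower, with summed levels of 2866 to 2948 CPM in gfp(RNAi) and 1329 to 1408 CPM in exoc3(RNAi), and AGAT-1, a marker of that lineage, fell by 1.05 on the log2 scale. Of 6 neuron markers 5 were called higher and 1, coe, lower, with summed levels of 1881 to 2031 CPM in controls and 2355 to 2472 CPM in depleted libraries. Neuropeptide precursor-18 made up most of that sum. Without it the levels were 350 to 359 CPM in controls and 402 to 421 CPM in depleted libraries. Both muscle markers were called lower, with sums of 38.3 to 39.2 and 22.9 to 25.8 CPM. Of 8 neoblast markers 4 were called higher and 4 lower, with summed levels of 9534 to 9799 CPM in gfp(RNAi) and 7496 to 8164 CPM in exoc3(RNAi). The net fall of that sum lay in smedwi-2 and smedwi-3, since the other 6 neoblast markers summed to 1564 to 1628 CPM in gfp(RNAi) and 1642 to 1810.1 CPM in exoc3(RNAi). HP1-1, with a gfp(RNAi) mean of 1065 CPM, made up most of that second sum. The fall was not limited to the PIWI genes, since soxP-2 and soxP-1 were also lower, with log2 fold changes of -0.48 and -0.18. The 4 markers called higher were the rest of these 6. None of these markers was at 0 reads in all libraries, and their part in the changes of vasa-1 and vasa-2 was not tested.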

How the data were processed

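The authors made stranded mRNA libraries (TruSeq) from X1 cells, sequenced single-end reads, processed them with bcl2fastq 1.8.4, aligned them with STAR 2.7.2b to the dd_Smes_g4 genome and counted uniquely aligned reads on the reverse strand with featureCounts 1.6.5. Reads that aligned to several places or overlapped several genes were not counted. Any reads that aligned equally to vasa-1, vasa-2 or a near-identical gene are therefore missing from the counts. The deposited values are raw counts per gene, 1 table per library, with no row for unassigned reads.

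The analysis used edgeR 4.0.16 under R 4.3.3. filterByExpr with a minimum count of 10 kept 14700 of 30917 genes and removed 16217. Libraries were scaled by TMM, and the quasi-likelihood F test was fitted to all 6 libraries without covariates. P-values were two-sided and Benjamini-Hochberg adjusted over all genes tested, with calls at an adjusted p under 0.05. SE were derived from the fold change and the F statistic. The step was tested on simulated data in which few genes changed, each by more than vasa-1 or vasa-2 did here. That simulation therefore does not show how the test performs for changes this small or this widespread. The edgeR p-values set each fold change against the variation between the 3 libraries per group, moderated by that of the other genes tested. They cover no variation beyond these libraries. No 2 libraries were alike within sampling noise, and all were kept.

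Ratios were tested by exact permutation of the libraries. Alternatives were DESeq2 1.42.0, other scalings and filters, robust dispersion, a required fold, a stricter threshold, leaving out each library, and a replicate block. Leaving out libraries for the ratios to other genes and for the summed level was added after seeing the data.

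The members and gene lists were chosen with earlier results of these data known. Genes named were the 2 helicases, Smed-exoc3, smedwi-2, smedwi-3 and cyclin B. Of the helicase list both DDX3X genes, TDRD9, TDRD12 and the 3 highest and 3 lowest by log2 fold change were named, and of the second list smedwi-2, smedwi-3, TDRD5, SND1, SmB and the 2 highest and 2 lowest. For each helicase the 3 genes of most similar pattern and the first 2 with a description were named. AGAT-1 was named outside this rule after its values were seen. Gene positions, transcript lengths and protein sequences were not used here.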

Additional observations from a re-analysis of the deposited data

How the results depend on the processing

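The directions of vasa-1, vasa-2, Smed-exoc3 and the vasa-1 to vasa-2 ratio held under every alternative run. A required fold above 1.2 removed the call of vasa-1 and vasa-2 in edgeR (adjusted p = 1.00 at -0.18 for vasa-1 and 0.726 at 0.25 for vasa-2). That requirement lowered the called genes from 7784 to 3151, the other helicases called from 26 to 18 and the called PIWI, Tudor and Sm genes from 17 to 11. Under the other alternatives vasa-1 lay at -0.22 to -0.10 and vasa-2 at 0.22 to 0.33. The largest shift of vasa-1 came from upper quartile scaling, with -0.10 and an edgeR adjusted p of 0.0486. That scaling moved the median of all genes by 0.08 and the portion of lower genes among those called from 51.2% to 39.1%. The ratio of vasa-1 to vasa-2 was past the threshold in edgeR with the vasa-2 count as scale (-0.43) but not in the exact permutation test, which cannot reach it. With each library left out in turn, the log2 values were -0.22 to -0.12 for vasa-1, 0.22 to 0.29 for vasa-2, -1.195 to -0.96 for Smed-exoc3 and -0.45 to -0.41 for the ratio, with 6642 to 8115 genes called, 26 helicases and 17 PIWI, Tudor and Sm genes. The ranges of the other log2 ratios were 0.28 to 0.33 (vasa-1 per smedwi-2), 0.71 to 0.75 (vasa-2 per smedwi-2), 0.06 to 0.11 (vasa-1 per smedwi-3), 0.50 to 0.53 (vasa-2 per smedwi-3), -0.42 to -0.36 (vasa-1 per cyclin B) and 0.01 to 0.07 (vasa-2 per cyclin B). The log2 change of the summed level ranged from -0.073 to 0.016 and turned positive, at 0.016, without exoc3(RNAi) replicate 3. Over all genes tested, same-numbered libraries showed no shared deviation, with correlations of -0.01, 0.02 and -0.02. With so few libraries, and with genes of few reads weighing as much as abundant ones, this does not exclude a pairing by replicate number. With the replicate block vasa-1 was at -0.18, vasa-2 at 0.25, the ratio at -0.43 (exact sign-flip p = 0.25, the smallest that 3 pairs allow), and 7642 genes were called. The cause of these shifts was not tested.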
